A study of Mus musculus with 8 samples.

Results

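The 10 alcohol and aldehyde dehydrogenase genes described here are Adh1, Adh4, Adh5, Adh7, Aldh1a1, Aldh1a7, Aldh1a3, Aldh1b1, Aldh2 and Aldh3a1, out of 20660 genes that the probes name. They were chosen by symbol, through the RefSeq accession of each probe, and 11 probes carry them, since Aldh3a1 has a pair. Of the 10 genes, 9 passed the filter on dim probes (well above background on at least 2 arrays), as did 14044 of all genes, and Adh4 did not. RNA was measured on 8 Agilent arrays with 1 dye, all on 1 slide, from BMEL, a line of embryonic mouse liver cells that can form hepatocytes or bile duct cells. Every group is this same line, and the groups are 2 arrays labelled DIFF, 3 labelled CM and 3 labelled NoRX. DIFF stands for differentiation medium, CM for conditioned medium and NoRX for untreated cells. The series title names the response of liver progenitors to medium conditioned by human amniotic epithelial cells. The composition of the media is not given in the sources used here, and no label ties a replicate to its own culture. The p-values therefore measure the spread between these arrays, which may be technical.

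Alcohol dehydrogenases are cytosolic zinc enzymes that oxidise alcohols to aldehydes with NAD+, and aldehyde dehydrogenases oxidise the aldehydes on to acids. In the liver this pair of steps turns ethanol into acetaldehyde and acetate, and in many tissues the same families turn retinol into retinaldehyde and retinoic acid. Adh1 is a product of mature hepatocytes, whereas Aldh1a1 is also used as a marker of stem and progenitor cells.

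The promoters that the results turn on come from 2 gene clusters, and 7 of the 10 genes matched a window in the RefSeq table of build GRCm38.p6 (Aldh1a3, Aldh2 and Aldh3a1 did not). Each window printed runs 5′ to 3′ from 250 bases before the annotated start to 30 after it, in lower case. On chromosome 3 the protein-coding genes stand in the order Adh7, Adh1, Adh6a, Adh6b, Adh4 and Adh5. The windows of Adh1 and its neighbour Adh6a are shown because both genes were far higher in DIFF, and that of Adh5, from the same cluster, because its level differed by less than its error. In the Adh1 and Adh6a windows capitals mark the 3 short sequences named after them, and in the Adh5 window capitals mark CG.
Adh1, chr3:138277335-138277614, plus strand: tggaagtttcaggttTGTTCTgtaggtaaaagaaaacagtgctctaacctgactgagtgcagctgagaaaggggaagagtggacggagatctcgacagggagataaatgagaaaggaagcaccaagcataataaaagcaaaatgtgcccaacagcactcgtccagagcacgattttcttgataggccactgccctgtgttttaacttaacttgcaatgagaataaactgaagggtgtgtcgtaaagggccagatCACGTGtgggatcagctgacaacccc
Adh6a, chr3:138313036-138313315, plus strand: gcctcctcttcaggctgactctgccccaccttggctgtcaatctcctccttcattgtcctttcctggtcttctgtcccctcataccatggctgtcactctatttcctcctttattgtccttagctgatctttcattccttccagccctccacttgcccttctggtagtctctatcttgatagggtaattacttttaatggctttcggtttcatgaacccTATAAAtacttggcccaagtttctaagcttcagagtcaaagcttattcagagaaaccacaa
Adh5, chr3:138442843-138443122, plus strand: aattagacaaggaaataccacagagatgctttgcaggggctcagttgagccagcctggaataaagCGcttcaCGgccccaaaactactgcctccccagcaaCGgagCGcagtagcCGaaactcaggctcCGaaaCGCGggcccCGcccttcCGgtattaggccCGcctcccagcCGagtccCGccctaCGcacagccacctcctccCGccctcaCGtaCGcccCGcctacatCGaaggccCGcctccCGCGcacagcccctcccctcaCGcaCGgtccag

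Positions in these windows count the start site as 1, with no 0, and bases before it are negative. The Adh1 window held CACGTG, the core of an E-box, at 5 and TGTTCT, a sequence shared by many glucocorticoid receptor sites, at -235. The Adh6a window held TATAAA, one form of the core promoter element called the TATA box, at -31. The table gives 2 starts for Adh5. The window printed, of the second, held none of the 3 sequences and 24 CG pairs, more than 83.1% of all windows of this length, against 6 in the Adh1 window and 1 in the Adh6a window. The window of the other Adh5 start held TATAAA at -207 and 3 CG pairs, more than 25.5% of all windows, so the contrast with Adh1 and Adh6a holds for the printed start only. On either strand, CACGTG was found in 6.79% of the 32851 windows in the table, whereas TGTTCT was found in 17.8% and TATAAA in 13.1% of them.

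On chromosome 19 Aldh1a1 and Aldh1a7 are close relatives with no other protein-coding gene between them in the table. Their windows are shown because the measured patterns of these relatives differed. Likeness of the windows does not bear on whether a probe for one gene also binds RNA of the other. Capitals mark runs of at least 12 bases that are identical at the same position in both windows.
Aldh1a1, chr19:20601718-20601997, plus strand: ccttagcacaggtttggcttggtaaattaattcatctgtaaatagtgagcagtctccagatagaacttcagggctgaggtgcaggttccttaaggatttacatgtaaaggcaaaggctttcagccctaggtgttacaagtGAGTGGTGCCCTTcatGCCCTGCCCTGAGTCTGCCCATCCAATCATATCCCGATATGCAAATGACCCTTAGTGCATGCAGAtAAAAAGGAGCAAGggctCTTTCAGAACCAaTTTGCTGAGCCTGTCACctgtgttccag
Aldh1a7, chr19:20727527-20727806, minus strand: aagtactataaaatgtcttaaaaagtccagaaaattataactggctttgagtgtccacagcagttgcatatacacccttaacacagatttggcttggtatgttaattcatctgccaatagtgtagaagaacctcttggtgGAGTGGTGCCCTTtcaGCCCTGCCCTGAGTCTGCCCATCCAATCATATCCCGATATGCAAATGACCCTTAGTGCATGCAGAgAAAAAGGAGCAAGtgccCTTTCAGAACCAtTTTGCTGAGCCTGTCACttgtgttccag
Of the last 150 bases, 133 were identical (88.7%), and the longest run was 65 bases. Both windows held the octamer ATGCAAAT at -56, found in 1.69% of all windows, and CCAAT at -72, found in 36.1%. This is the second of 2 annotated Aldh1a1 starts, and the last 150 bases of the first start's window matched those of Aldh1a7 at 42 positions (28.0%).

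Levels are given as relative signal, the processed signal of a probe divided by the 75th percentile of its array, and differences as log2 values of DIFF or CM over its comparison group, with their SE. A probe's relative signal is not comparable with that of another probe. Tests are limma's, with p-values adjusted over all 14044 genes and a threshold of 0.05. DIFF replicate 2 stood apart, with 46.4% of its spots well above background, against 50.8% to 53.5% on the other arrays, and 1159 spots with uneven local background, against 3 to 90. The DIFF arrays correlated at 0.960 across genes, against 0.991 to 0.993 for CM and 0.993 to 0.994 for NoRX. The median difference of all genes was -0.10 for DIFF against NoRX, 0.01 for CM against NoRX and -0.11 for DIFF against CM, and with arrays centred on their medians it was 0.05, -0.00 and 0.06. By the positions on the slide, row 1 held all of NoRX together with CM replicate 1, and row 2 held the remaining 4 arrays.

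In DIFF against NoRX, Adh1 and Aldh1a7 rose, Aldh1a3 and Aldh3a1 fell, and 5 of the 9 genes tested did not pass. Among all genes tested, 14.0% rose and 28.1% fell in this comparison. These shares move with the DIFF arrays: 3767 genes were higher and 3369 lower without DIFF replicate 2, and 1752 and 6733 without DIFF replicate 1, against 1962 and 3948 with both. In CM against NoRX, Adh1, Aldh1a7 and Aldh1b1 rose, Adh7 and Aldh3a1 fell, and 4 did not pass, where 26.9% of all genes rose and 25.3% fell. In DIFF against CM, Adh1, Adh7 and Aldh1a7 rose, Aldh1a3 and Aldh1b1 fell, and 4 did not pass, where 23.6% of all genes rose and 35.5% fell. The median difference of the 9 genes was 0.15 for DIFF against NoRX, 0.19 for CM against NoRX and -0.14 for DIFF against CM. The comparisons share groups, so their values are set side by side and not counted as separate support.

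**Figure D1:**
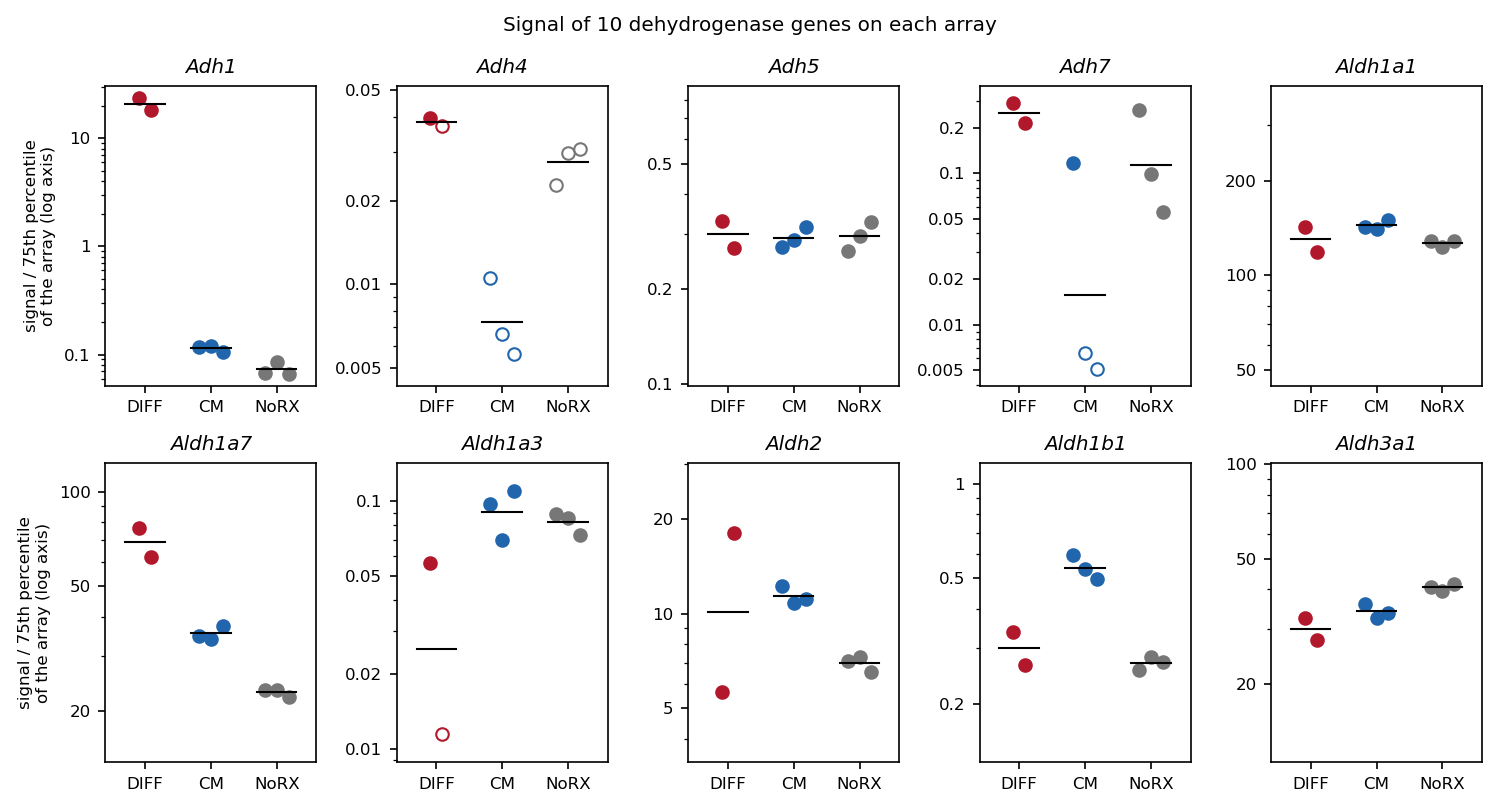
Signal of each of the 10 genes on each array, as relative signal (signal over the array's 75th percentile, log axis), with DIFF left, CM in the middle and NoRX right. Points are arrays, filled where the probe was well above background and open where it was not, and bars are means of log2 values; Adh1 stands at 18.0 and 23.3 on the DIFF arrays, and every CM and NoRX array lies at or below 0.120.

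Adh1, the class I enzyme that carries out most ethanol oxidation in hepatocytes, showed by far the widest range of the 10. Its relative signal was 23.3 and 18.0 on the DIFF arrays, 0.118, 0.120 and 0.106 on the CM arrays, and 0.0682, 0.0860 and 0.0667 on the NoRX arrays. No array of one group overlapped with another group, and the probe was well above background on all 8 arrays. Adh1 was 281-fold higher in DIFF than in NoRX (log2 difference 8.13 ± 0.15, adjusted p = 3.98e-11), the 12th highest difference of 14044 genes. Against CM it was 179-fold higher in DIFF (7.49 ± 0.15, adjusted p = 2.89e-11). After normexp background correction, which adds an offset of 50 to every signal, these differences were 6.74 and 6.52 and still passed. In CM it was 1.56-fold higher than in NoRX (0.65 ± 0.14, adjusted p = 0.00211), which ranked 1722nd among all genes. The CM and NoRX signals were low, and after the same correction this difference was 0.21 and did not pass (adjusted p = 0.195).

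Hepatocyte markers moved in the same samples. Of 7 such markers, 7 and 6 were well above background on the DIFF arrays, 5 or 6 on the CM arrays and 4 on each NoRX array. Their summed relative signal was 126 to 164 in DIFF, 2.99 to 4.32 in CM and 3.16 to 3.40 in NoRX, and their part in the Adh1 difference was not tested. These sums follow the brightest probes and hide single markers. Against NoRX, 6 rose in DIFF and G6pc did not. Cps1 and Apoa1 passed the filter only through the DIFF arrays, since Apoa1 was well above background on just 1 other array, CM replicate 3. In CM 2 rose, 1 fell and 4 did not pass. Among all genes tested, 14.0% rose and 28.1% fell in DIFF against NoRX, and 26.9% and 25.3% in CM against NoRX. The same shares apply to the progenitor and cholangiocyte markers below. Alb was 0.695 to 0.976 in CM and 0.0605 to 0.120 in NoRX. Serpina1a was lower in CM (0.246 to 0.375) than in NoRX (0.530 to 0.904). In bulk RNA more cells of a type and more RNA per cell cannot be told apart. All 8 progenitor and cholangiocyte markers were well above background on every array except DIFF replicate 2, where Spp1 was not. These markers also moved: against NoRX, Krt7 and Afp rose and 6 fell in DIFF (median -0.60), while 3 rose and 5 fell in CM (median -0.34). Their summed relative signal was 1015 to 1285 in DIFF, 1153 to 1254 in CM and 1500 to 1617 in NoRX. Markers of other cell types were detected in part, and their part in the results was not tested. Of 8 stellate cell and fibroblast markers 1 to 5 were well above background per array, with a summed relative signal of 0.257 to 0.352 in DIFF, 1.251 to 1.572 in CM and 0.576 to 0.597 in NoRX. Of 6 macrophage and leukocyte markers on the array 2 or 3 were (summed signal 2.02 to 2.57 in DIFF, 4.35 to 4.54 in CM and 3.37 to 3.79 in NoRX). Of 7 endothelial markers 4 to 6 were (8.45 to 9.97 in DIFF, 10.6 to 11.5 in CM and 10.4 to 12.6 in NoRX). Of 4 erythroid markers on the array 1 to 3 were (0.763 to 0.842 in DIFF, 0.251 to 0.501 in CM and 0.270 to 0.485 in NoRX). Des, Csf1r, Cd3e, Kdr, Pecam1, Vwf and Hba-a1 were well above background on all 8 arrays, whereas Pdgfrb, Lum and Reln of stellate cells, Adgre1 and Lyz2 of macrophages, Tek of endothelium and Alas2 of erythroid cells were so on none.

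Adh4, the class II enzyme of the liver, was at the limit of detection. The relative signal of its probe was 0.0398 and 0.0372 in DIFF, 0.0106, 0.00664 and 0.00561 in CM and 0.0227, 0.0298 and 0.0306 in NoRX. Only DIFF replicate 1 was well above background, although the 3 groups did not overlap, and no fold or test is given.

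Adh5, the class III enzyme, clears formaldehyde as its glutathione adduct and is active in most tissues. Relative signals were 0.329 and 0.271 in DIFF, 0.273, 0.286 and 0.314 in CM and 0.265, 0.295 and 0.326 in NoRX. The groups overlapped in every pairing. The differences were 0.02 ± 0.14 for DIFF against NoRX (95% interval -0.29 to 0.33), -0.02 ± 0.12 for CM against NoRX (-0.29 to 0.26) and 0.04 ± 0.14 for DIFF against CM (-0.27 to 0.35). Together these intervals leave room for differences from -0.29 to 0.35 on the log2 scale.

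Adh7, the class IV enzyme known from the stomach and other epithelia and active on retinol, varied widely between replicates. Its relative signal was 0.290 and 0.214 in DIFF, 0.117, 0.00648 and 0.00512 in CM and 0.260, 0.0988 and 0.0556 in NoRX. CM replicate 1 lay among the NoRX arrays, while CM replicates 2 and 3 were not well above background. In the fit Adh7 fell by 2.84 ± 0.99 on the log2 scale in CM against NoRX (adjusted p = 0.0322) and rose in DIFF against CM (3.99 ± 1.11, adjusted p = 0.00923). DIFF differed from NoRX by 1.15 ± 1.11 (adjusted p = 0.436).

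Within CM the Adh7 values split by slide row. CM replicate 1, the only CM array in row 1, had 0.117, and the NoRX arrays, all in row 1, spanned 0.0556 to 0.260. With the row as a block the difference of CM against NoRX was 0.057 ± 0.64 (adjusted p = 0.961). Within row 1, where CM is 1 array, it was also 0.057. DIFF, all in row 2, shares no row with NoRX, and with the row as a block it differed from NoRX by 5.49 ± 0.85. That value links DIFF to NoRX only through the CM arrays, of which replicates 2 and 3 were not well above background. It is therefore no direct comparison of DIFF with NoRX, and no test of it is given. The call of CM against NoRX was also lost without NoRX replicate 1 (-2.24), NoRX replicate 2 (-2.93), CM replicate 2 (-2.20) or CM replicate 3 (-2.03), and that of DIFF against CM without DIFF replicate 1 (3.77) or with array weights (4.19 ± 2.93, adjusted p = 0.302). The 24 spots around the Adh7 probe had a median signal of 59.0 and 69.75 on the DIFF arrays, 155.5, 62.0 and 65.25 on the CM arrays and 133.5, 99.25 and 65.0 on the NoRX arrays. By these medians the brightest surroundings were those of CM replicate 1 and NoRX replicates 1 and 2. Set against the same spots on the other arrays, their median ratios were 1.22, 1.11 and 1.03, and that of NoRX replicate 3 was also 1.03. By this measure NoRX replicate 2 was thus no brighter than NoRX replicate 3. The part of the surroundings in the Adh7 signal was not tested.

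**Figure D2:**
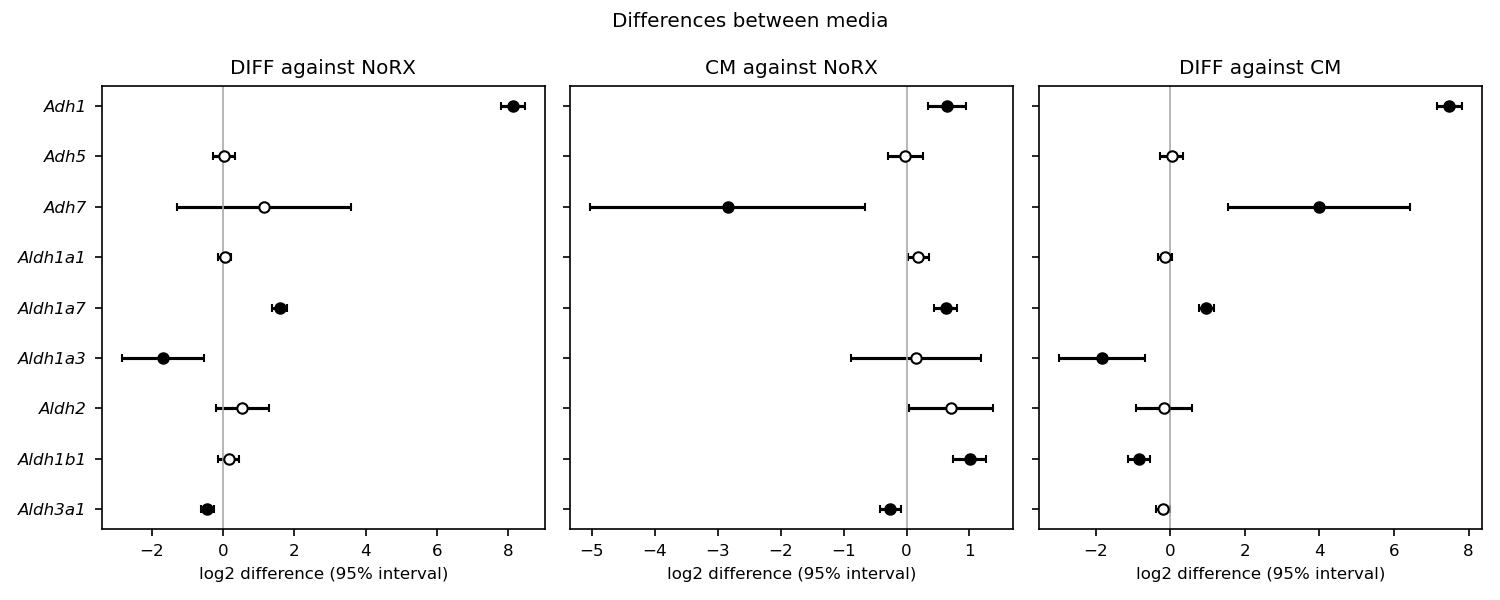
Log2 differences of the 9 genes tested, in DIFF against NoRX, CM against NoRX and DIFF against CM, with 95% intervals from limma. Filled points passed an adjusted p of 0.05 and open points did not; the interval of Adh1 lies above 7 in both DIFF comparisons, and that of Adh7 is the widest in each panel.

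Aldh1a7, a relative of Aldh1a1 found in mouse and rat, had the same order of groups on every array. On the arrays the relative signal was 77.0 and 62.1 in DIFF, 34.7, 34.1 and 37.5 in CM and 23.4, 23.5 and 22.2 in NoRX. The groups did not overlap. Aldh1a7 was 3.01-fold higher in DIFF than in NoRX (1.59 ± 0.09, adjusted p = 1.56e-07) and 1.54-fold higher in CM than in NoRX (0.62 ± 0.08, adjusted p = 1.04e-04). It was 1.95-fold higher in DIFF than in CM (0.97 ± 0.09, adjusted p = 5.37e-06). All 3 calls held in each alternative run, with differences of 1.43 to 1.75, 0.56 to 0.65 and 0.81 to 1.14.

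Aldh1a1, a cytosolic enzyme that makes retinoic acid from retinaldehyde, was near level. Its relative signal was 143 and 119 in DIFF, 143, 139.9 and 149.6 in CM and 128, 123 and 128 in NoRX. The CM arrays lay above the NoRX arrays without overlap, and the DIFF arrays spanned the NoRX range. The difference of CM from NoRX was 0.19 ± 0.08 and did not pass (adjusted p = 0.0627). It passed in 7 of 24 alternatives, at 0.16 to 0.24 over all of them, among them the fit of these 2 groups alone (adjusted p = 0.00125). DIFF differed from NoRX by 0.04 ± 0.09 (95% interval -0.15 to 0.23) and from CM by -0.14 ± 0.09 (-0.33 to 0.04). Without DIFF replicate 2 the first difference was 0.17, and without DIFF replicate 1 the second was -0.28. Each of these rests on 1 DIFF array, so no test of it is given. Whether each of these probes also binds RNA of the close relative was not tested, since the files used hold no probe sequences, so Aldh1a1 and Aldh1a7 are uncertain as separate genes.

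Aldh1a3, another enzyme of retinoic acid synthesis, was dim on all arrays. Relative signals were 0.0561 and 0.0114 in DIFF, 0.0971, 0.0700 and 0.110 in CM and 0.0887, 0.0859 and 0.0728 in NoRX. The DIFF arrays lay below all others, and DIFF replicate 2 was not well above background. Aldh1a3 was 3.24-fold lower in DIFF than in NoRX (-1.70 ± 0.52, adjusted p = 0.0225) and 3.59-fold lower than in CM (-1.84 ± 0.52, adjusted p = 0.0103). Without DIFF replicate 2 the differences were -0.55 and -0.70, which rest on 1 DIFF array and are given without a test. After normexp correction they were -0.22 (adjusted p = 0.461) and -0.17 (adjusted p = 0.520). CM differed from NoRX by 0.14 ± 0.47 (95% interval -0.89 to 1.18).

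Aldh1b1, a mitochondrial enzyme that takes acetaldehyde and retinaldehyde among its substrates, stood out in CM. Its relative signal was 0.339 and 0.265 in DIFF, 0.593, 0.538 and 0.498 in CM and 0.256, 0.281 and 0.272 in NoRX. The CM arrays lay above all others, and the DIFF arrays overlapped with the NoRX arrays. Aldh1b1 was 2.01-fold higher in CM than in NoRX (1.01 ± 0.12, adjusted p = 3.83e-05) and 1.81-fold lower in DIFF than in CM (-0.85 ± 0.13, adjusted p = 2.10e-04). Both calls held in each alternative run. DIFF differed from NoRX by 0.15 ± 0.13 (95% interval -0.14 to 0.45, adjusted p = 0.389). Without DIFF replicate 2, which leaves 1 DIFF array, this difference was 0.33, and no test of that value is given.

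Aldh2, the mitochondrial enzyme that removes most acetaldehyde formed from ethanol, has 1 unreliable value. The Aldh2 probe had a relative signal of 5.65 and 18.1 in DIFF, 12.2, 10.9 and 11.1 in CM and 7.07, 7.30 and 6.55 in NoRX. DIFF replicate 1 lay below all other arrays and DIFF replicate 2 above them. On DIFF replicate 2 the Aldh2 spot sits in a bright patch of 1073 spots, against 3 to 67 such spots on the other arrays. Of its 24 neighbours, 22 were over 2 times their median on the other arrays, and their median signal was 15566 there, against 56.75 to 71.75 elsewhere.

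**Figure D3:**
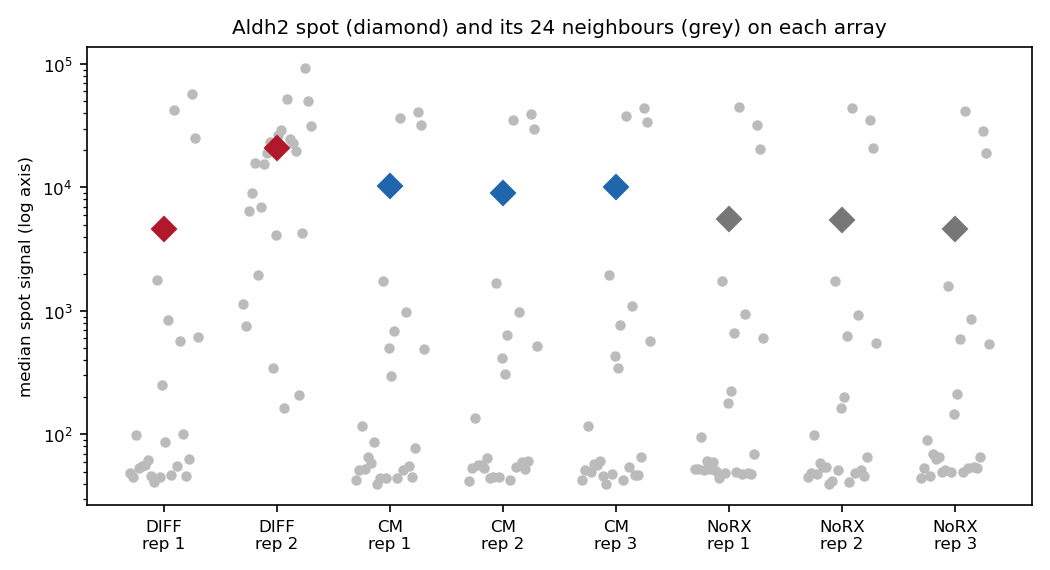
Median spot signal (log axis) of the Aldh2 spot (diamond) and of its 24 neighbours within 2 rows and 2 columns (grey points) on each array, DIFF left, CM in the middle and NoRX right. The median of the neighbours is 15566 on DIFF replicate 2 and 56.75 to 71.75 on the other 7 arrays, and Aldh2 is highest on DIFF replicate 2.

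With both DIFF arrays, Aldh2 differed by 0.54 ± 0.34 in DIFF against NoRX (adjusted p = 0.232) and by -0.17 ± 0.34 in DIFF against CM (adjusted p = 0.686). With the patch spots left out, a setting chosen after the data were seen, DIFF rests on replicate 1 alone for Aldh2. The difference was then -0.30 in DIFF against NoRX and -1.01 in DIFF against CM. Without DIFF replicate 1, which leaves the array with the patch, the differences were 1.37 and 0.67, so the sign depends on which DIFF array is used. With a single DIFF array the spread comes from the CM and NoRX arrays alone, and no test of these values is given. The CM arrays lay above the NoRX arrays without overlap, 1.63-fold on average (0.71 ± 0.30), which did not pass (adjusted p = 0.0718) in a fit whose spread includes the patch. With the patch spots left out the difference was 0.71 ± 0.08 (adjusted p = 2.40e-07), and it passed in 10 of 24 alternatives, with values of 0.66 to 0.81 over all 24.

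Aldh3a1, a cytosolic enzyme of aromatic and lipid-derived aldehydes that is abundant in the cornea, was highest in NoRX. On its brighter probe the relative signal was 32.3 and 27.5 in DIFF, 36.0, 32.4 and 33.7 in CM and 40.7, 39.6 and 41.5 in NoRX. On its other probe it was 25.9 and 21.2 in DIFF, 24.2, 23.1 and 26.7 in CM and 33.0, 30.9 and 32.4 in NoRX. On both probes every DIFF and CM array lay below every NoRX array. On the brighter probe Aldh3a1 was 1.36-fold lower in DIFF than in NoRX (-0.45 ± 0.09, adjusted p = 0.00148) and 1.19-fold lower in CM than in NoRX (-0.25 ± 0.08, adjusted p = 0.0156). The other probe differed by -0.45 ± 0.10 and -0.38 ± 0.09 in a fit of all kept probes.

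The Aldh3a1 calls depended on the settings. With arrays centred on their medians DIFF against NoRX was -0.29 and did not pass (adjusted p = 0.0569). With the slide row as a block the differences were -0.32 (adjusted p = 0.190) and -0.17 (adjusted p = 0.291). The call of CM against NoRX was also lost without NoRX replicate 1, NoRX replicate 3, CM replicate 2 or CM replicate 3 (-0.22 to -0.25, adjusted p of 0.0528 to 0.0811). On the brighter probe DIFF differed from CM by -0.19 ± 0.09 (adjusted p = 0.0752) with no overlap of arrays. Without DIFF replicate 1, which leaves 1 DIFF array, this difference was -0.31, and no test of that value is given. On the other probe the arrays overlapped and the difference was -0.07 ± 0.10 (adjusted p = 0.558).

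Among 18 other genes of the 2 families, 16 were tested. Of these, 7 rose, 6 fell and 3 did not pass in DIFF against NoRX (median -0.22). The 7 include Aldh3b1 (0.35), whose spot on DIFF replicate 2 lies in the bright patch and was left out as an outlier. Its DIFF value is replicate 1 alone, so this call is uncertain. In CM against NoRX 3 rose, 4 fell and 9 did not pass (median -0.10), and in DIFF against CM 8 rose, 3 fell and 5 did not pass (0.31). Of all genes, 14.0% rose and 28.1% fell in the first comparison, 26.9% and 25.3% in the second and 23.6% and 35.5% in the third, which are the shares for each list that follows too. With the slide row as a block 4 rose and 1 fell in DIFF against NoRX, and in DIFF against CM 1 fell with arrays centred on their medians. The fallen count in DIFF against CM also changed without DIFF replicate 1, but counts from 1 DIFF array are not given here. Adh6a, the neighbour of Adh1, had a relative signal of 0.226 and 0.199 in DIFF, 0.00772, 0.00703 and 0.00549 in CM and 0.00720, 0.00664 and 0.00751 in NoRX. It was well above background on the DIFF arrays alone, at least 8.17-fold higher than in NoRX and at least 15.3-fold higher than in CM. The iron-dependent Adhfe1 was likewise measured in DIFF only, at least 2.54-fold higher than in NoRX and at least 4.52-fold higher than in CM. Both genes are counted among those that rose in DIFF. They passed the filter only through the DIFF arrays, where they are high, so these calls are no separate support. Both Adhfe1 calls were lost with array weights (differences of 1.86 and 2.61), and that against NoRX also without DIFF replicate 1 (1.52).

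Several of these relatives changed in opposite directions. Aldh1l1, the folate enzyme that oxidises formyl groups, was 4.35-fold higher in DIFF (2.12 ± 0.11) and 1.72-fold higher in CM than in NoRX (0.78 ± 0.10), while its mitochondrial relative Aldh1l2 fell by 1.28 ± 0.08 in CM. Aldh6a1, of valine breakdown, was 3.19-fold higher in DIFF than in NoRX (1.67 ± 0.09). Aldh5a1, of GABA breakdown, rose in CM against NoRX (0.66 ± 0.08) and was lower in DIFF than in CM (-0.95 ± 0.09). Aldh7a1, of lysine breakdown, was lower than in NoRX both in DIFF (-0.77 ± 0.08) and in CM (-0.51 ± 0.08), as was Aldh16a1 (-0.58 ± 0.09 and -1.07 ± 0.08). Adjusted p-values of these differences ran from 6.14e-08 to 4.91e-04, and the call of Aldh16a1 in DIFF was lost with the slide row as a block (-0.53).

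Of 33 genes of retinoid supply, handling and response, 28 were tested. In DIFF against NoRX 9 rose, 9 fell and 10 did not pass (median -0.08), in CM against NoRX 12 rose, 5 fell and 11 did not pass (0.13), and in DIFF against CM 7 rose, 12 fell and 9 did not pass (-0.17). In the first of these 6 fell with arrays centred on their medians. The fallen count there also changed without DIFF replicate 1, which leaves 1 DIFF array. Ttr, the plasma carrier of retinol-binding protein and itself a hepatocyte marker, was 23.0-fold higher in DIFF than in NoRX (4.52 ± 0.16, adjusted p = 2.70e-09). Rbp2, a cellular retinol-binding protein, was 20.1-fold higher (4.33 ± 0.14, adjusted p = 1.38e-09). Rdh10, which makes retinaldehyde from retinol, fell by 1.90 ± 0.09 in DIFF and by 0.95 ± 0.08 in CM against NoRX, and Bco2, which cleaves carotenoids, fell by 2.22 ± 0.11 in DIFF. In CM against NoRX Bco1, which makes retinaldehyde from carotene, rose by 2.21 ± 0.18 (well above background on 2 of the 3 NoRX arrays), Rdh11 by 1.68 ± 0.08 and the receptor gene Rxra by 1.66 ± 0.11. Dhrs3, which returns retinaldehyde to retinol, fell by 0.77 ± 0.09 and Dhrs4 by 1.06 ± 0.09.

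Of 21 aldo-keto and carbonyl reductase genes, whose enzymes reduce aldehydes and ketones, 17 were tested. There 7 rose, 6 fell and 4 did not pass in DIFF against NoRX (median 0.03), in CM against NoRX 7 rose, 2 fell and 8 did not pass (0.17), and in DIFF against CM 5 rose, 6 fell and 6 did not pass (-0.14). With the slide row as a block 2 fell in DIFF against NoRX and 0 in CM against NoRX. In DIFF against CM 3 rose and 5 fell after normexp correction. Both counts there also changed with the DIFF array left out, but counts from 1 DIFF array are not given here. The carbonyl reductase gene Cbr1 was lower in DIFF (-0.70 ± 0.09) and higher in CM (1.84 ± 0.08) than in NoRX, and Akr1b8 was likewise lower in DIFF (-0.74 ± 0.08) and higher in CM (1.07 ± 0.07). Directly compared, DIFF was below CM by 2.54 ± 0.09 for Cbr1 (adjusted p = 1.60e-09) and by 1.81 ± 0.08 for Akr1b8 (adjusted p = 5.40e-09). Akr1b7 was 10.5-fold higher in DIFF than in NoRX (3.40 ± 0.14, adjusted p = 6.43e-09), Akr1c14 4.01-fold and Akr1c19 2.73-fold. Cbr3 was 7.10-fold higher in CM than in NoRX (2.83 ± 0.08, adjusted p = 2.74e-09).

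Of 8 further genes of ethanol, acetate and formaldehyde handling, 6 were tested. In DIFF against NoRX none rose, 4 fell and 2 did not pass (median -0.45), in CM against NoRX 2 rose, none fell and 4 did not pass (0.12), and in DIFF against CM none rose, 4 fell and 2 did not pass (-0.72). With the slide row as a block 1 fell in DIFF against NoRX. Esd, which frees formate from the glutathione adduct that Adh5 makes, was 2.36-fold higher in CM than in NoRX (1.24 ± 0.06, adjusted p = 5.93e-08) and 3.05-fold lower in DIFF than in CM (-1.61 ± 0.07, adjusted p = 5.21e-09). Acss2, which activates acetate, rose in CM against NoRX (0.59 ± 0.08) and fell in DIFF against NoRX (-0.43 ± 0.09) and against CM (-1.02 ± 0.09). Catalase (Cat), which can oxidise ethanol, fell by 0.53 ± 0.08 in DIFF against NoRX. The calls of Esd (-0.37) and Acss2 in DIFF against NoRX were lost with arrays centred on their medians and with the slide row as a block, and that of Esd also with the mean of its probes (-0.11).

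**Figure D4:**
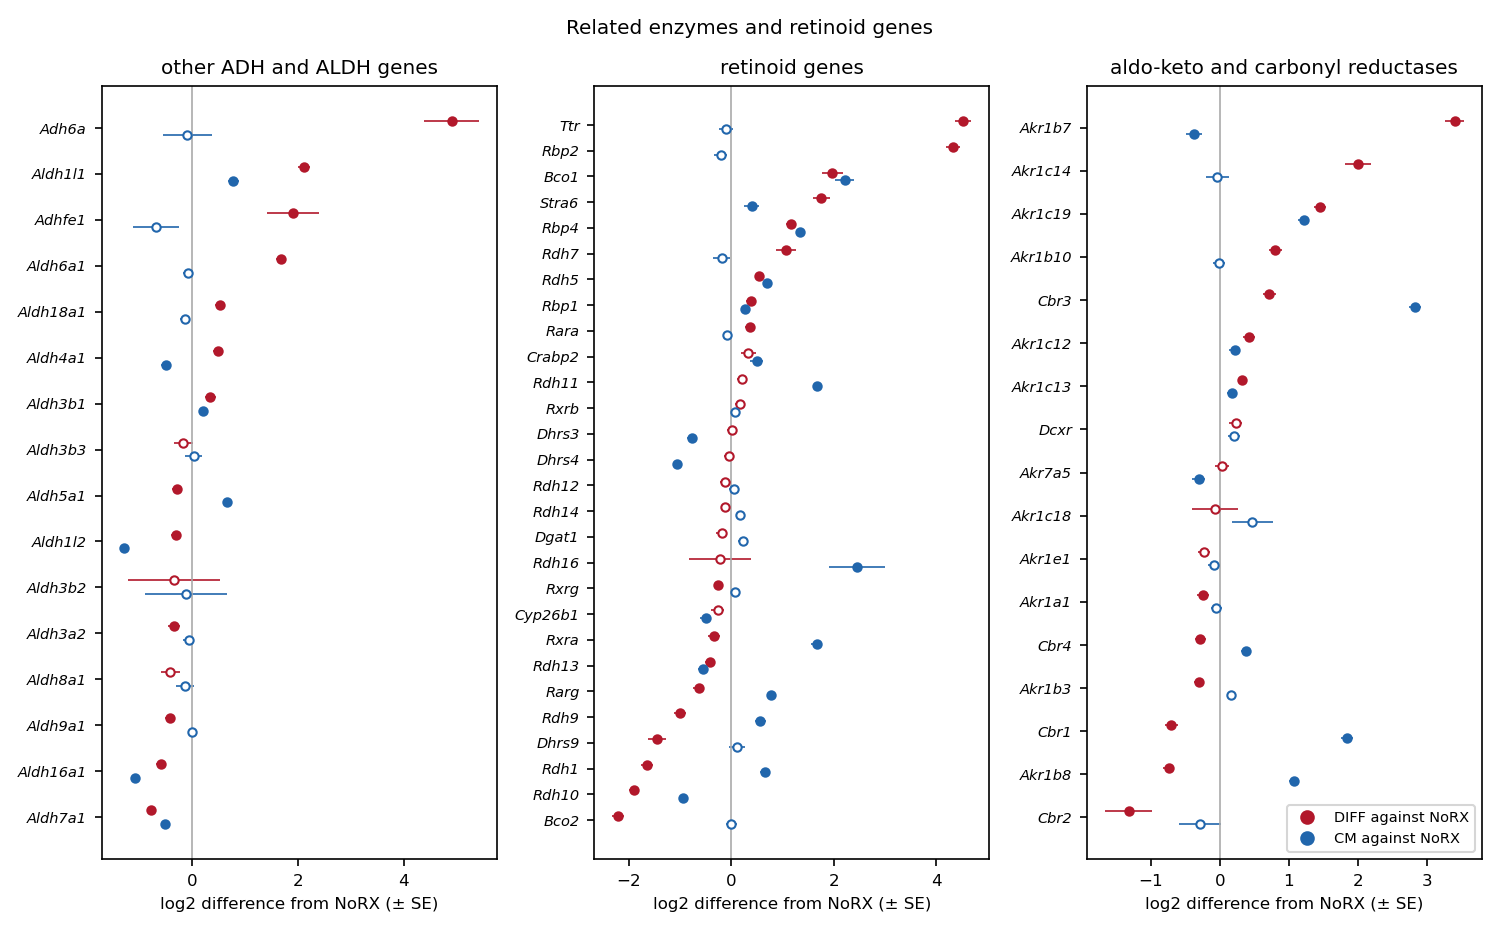
Log2 differences from NoRX (± SE) of the genes tested in 3 lists, other ADH and ALDH genes, retinoid genes, and aldo-keto and carbonyl reductases, with DIFF in red and CM in blue, ordered by the DIFF value. The DIFF value of Aldh3b1 is replicate 1 alone. Filled points passed an adjusted p of 0.05 in limma and open points did not; Adh6a, Ttr, Rbp2 and Akr1b7 lie highest in DIFF, and Cbr3 and Cbr1 are higher in CM than in DIFF.

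The genes most like each dehydrogenase gene were found by Pearson's r of log2 values over the 8 arrays, which share 3 groups, among genes that ranged over at least 1 on the log2 scale. For Adh1 they were Fkbp5 (r = 0.999), Tsc22d3 (0.998) and Slc25a33 (0.998), and for Aldh1a7 Gstm2 (0.997), Pml (0.996) and Npcd (0.996). For Aldh1b1 they were Tagap1 (0.998), Ly6m (0.992) and H2-Q6 (0.991), which were higher in CM than in NoRX by 0.93, 2.01 and 1.19. For Aldh3a1 they included Utp14a (0.984) and Neurl3 (0.981), and for Aldh1a3 they were Kcna1 (0.981), Per3 (0.971) and Tnni1 (0.965). The nearest genes had a lower r for Aldh2 (Fem1c, 0.965), Adh7 (Ndc80, 0.935), Aldh1a1 (Tmem91, 0.909) and Adh5 (Pcp2, 0.798). Adh5, Aldh1a1 and Aldh3a1 themselves ranged over 0.31, 0.33 and 0.59, less than was asked of the candidates. Genes as flat as these could therefore not be chosen. For Aldh2, Aldh1a3 and Adh7 these likenesses include the values doubted above.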

How the data were processed

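The scanner files hold spot intensities on a linear scale, and the submitters' processing notes name Feature Extraction 11.0.1.1 from Agilent. The processed signal used here is an intensity from which background was subtracted and a spatial trend removed on each array by itself, per the file headers, and no scaling between arrays is recorded there. The deposited series table holds the same intensities (largest difference 0).

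From each log2 processed signal the array's 75th percentile, over 59305 spots that are no controls, was subtracted. Outlier spots were left out, spots of 1 probe averaged, and of several probes of a gene the brightest was used. Of 55681 probes, 27235 matched a RefSeq accession and 28446 did not. The array design is built on mm9 and the RefSeq table on GRCm38.p6, so coordinates are given only for that table's windows. A gene was tested when its probe passed the scanner's background flag on 2 or more arrays, which kept 14044 genes. One fit of all 8 arrays used limma 3.58.1 in R 4.3.3 (lmFit, eBayes with a trend), and two-sided p-values were adjusted by Benjamini-Hochberg over every gene tested. The fit was also run on simulated data with the same spread in every group. The DIFF arrays differed more from each other than that, so the run does not bear on the DIFF p-values. No spot was saturated, and the number of arrays limits the precision.

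Bounds set the brighter group's mean against the higher of the dim probe's own signal and the lowest signal well above background. All 10 genes are named. From each of 4 further lists, up to 4 genes per direction and comparison with the largest differences past the test could be named, and the 3 most alike genes by Pearson's r. Not all of these most alike genes are reported here. The members and lists were chosen with earlier results of these data known. Normexp was planned on mean spot signals and was run on median spot signals, the column the files hold. Alternatives varied background correction, scaling, filter, probe choice, blocks, weights, trend and arrays. Titles number the DIFF arrays 1 and 2, another label numbers both 1, and both averaged to 1 sample was among the alternatives. Windows were read with Python 3.11.15.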

Additional observations from a re-analysis of the deposited data

How the results depend on the processing

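Of 14 differences of the dehydrogenase genes that passed the test, 7 kept direction and call in every alternative. These were both DIFF comparisons of Adh1, all 3 comparisons of Aldh1a7, and Aldh1b1 in CM against NoRX and in DIFF against CM. Under normexp correction 1 gene fell in each comparison (Aldh3a1 in DIFF against NoRX, Adh7 in CM against NoRX, Aldh1b1 in DIFF against CM), as did 1 in each when every array had to pass the background flag, which leaves out Adh7 and Aldh1a3. In DIFF against NoRX 1 fell under median centring, with no filter, with array weights and without the mean-variance trend, and 0 with the slide row as a block. In CM against NoRX 0 fell with the row as a block and 1 without the trend. There 5 rose with array weights, in the fit of these 2 groups alone and with DIFF averaged to 1 sample (Aldh1a1 and Aldh2 being added). Among all genes, 4851, 4769 and 4762 were higher in these runs, in that order, against 3776 in the reported fit. Counts within row 1, where CM is 1 array, are not given. In DIFF against CM 1 fell with array weights and 4 with DIFF averaged. Leaving out 1 array at a time, 2 to 4 rose and 1 to 2 fell in DIFF against NoRX, 3 to 5 rose and 0 to 2 fell in CM against NoRX, and 3 rose and 2 to 4 fell in DIFF against CM. Adh7 in CM against NoRX was 0.057 with the row as a block and within row 1. With 1 array left out at a time, Aldh2 ran from -0.30 (without DIFF replicate 2) to 1.37 (without DIFF replicate 1) in DIFF against NoRX, and from -1.01 to 0.67 in DIFF against CM with the same arrays left out. It was also -0.30 in DIFF against NoRX with the patch spots left out, a setting chosen after seeing the data. For Aldh2 the neighbouring spots show the patch; elsewhere the cause was not tested. Of 78 differences of named related genes, 58 kept their call in every alternative, and 2 turned, both after normexp in DIFF against CM: Cbr2 (0.079) and Rdh16 (0.019). Median centring gave 2400 higher and 2133 lower genes for DIFF against NoRX, against 1962 and 3948 in the reported fit, and 3937 and 3184 for DIFF against CM, against 3315 and 4989. Without 1 DIFF array, that arm is 1 array, assumed to vary like the other groups. With array weights DIFF against NoRX had 933 and 2107, and with the row as a block 916 and 1887.

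Whether replicate numbers pair the arrays was not settled. Deviations of same-numbered arrays from their group means correlated at -0.00732, 0.00951 and -0.0568 between CM and NoRX. Between DIFF and CM they correlated at 0.0867 and 0.175, and between DIFF and NoRX at -0.0238 and -0.0249. Each DIFF array correlated best with the CM array of its number, whereas no CM array did so with NoRX. Deviations of the 2 DIFF arrays mirror each other, so their values are not independent and cannot exclude pairs. With the replicate block 2 genes rose and 2 fell in DIFF against NoRX, 4 rose and 2 fell in CM against NoRX (Aldh2 being added, 0.71, adjusted p = 0.0388) and 3 rose and 2 fell in DIFF against CM, and no other call of the 10 genes changed.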
